A study of Homo sapiens with 6 samples.

Results

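The CEACAM family was read on microarrays of 2 subclones of DLD-1, a human colorectal adenocarcinoma cell line. Its members were the probe sets to which the platform annotation assigns exactly 1 gene symbol, that symbol being CEACAM1, CEACAM3, CEACAM5, CEACAM6, CEACAM7, CEACAM8, CEACAM19 or CEACAM21. This gave 19 of the 54613 probe sets that were not array controls, and 8 of 19775 genes. DLD-1Δα-Cat and the comparison subclone DLD-1α-Cat were each read on 3 arrays, so there were 6 samples. Both subclones had been kept for 96 h in a 3D gel of type I collagen at 1 mg/ml and had received no treatment. What Δα-Cat stands for is not written out in the labels, and each group is a single subclone, so its label cannot be told apart from any other property of that subclone. The labels do not state whether replicates were separate cultures, so errors and p-values cover the spread among these arrays alone, and that spread may be technical. The family was chosen by the log2 difference between these same arrays. The members' differences are therefore a description, and no p-value is given for a member. Counts of calls in the main fits are given beside the share of all probe sets or genes called in the same way.

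CEACAM proteins are cell surface glycoproteins of the immunoglobulin superfamily, named after carcinoembryonic antigen, and several bind each other on the same or on neighbouring cells. CEACAM5, CEACAM6, CEACAM7 and CEACAM8 are held in the membrane by a glycosylphosphatidylinositol (GPI) anchor, whereas CEACAM1, CEACAM3, CEACAM19 and CEACAM21 span it. In the normal colon CEACAM1, CEACAM5, CEACAM6 and CEACAM7 lie at the luminal surface of the epithelium. CEACAM3 and CEACAM8 are known from granulocytes.

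The members lie on chromosome 19, in the order CEACAM21, CEACAM7, CEACAM5, CEACAM6, CEACAM3, CEACAM1, CEACAM8 and CEACAM19 (RefSeq, GRCh38.p14). RefSeq promoter windows, from 250 bases before to 50 bases after the annotated start, were at hand for 7 of the 8 members, all but CEACAM19. The probe sets of CEACAM7 were dim and hardly differed. The 4 windows below set CEACAM7 beside the GPI-anchored members with the largest differences between the subclones, CEACAM6, CEACAM8 and CEACAM5. They are chr19:41755280-41755579 for CEACAM6 and chr19:41708376-41708675 for CEACAM5, both on the plus strand, and chr19:41688221-41688520 for CEACAM7 and chr19:42594875-42595174 for CEACAM8, both on the minus strand, each written 5′ to 3′ in the direction of its gene. Capitals mark matches to CACGTG (the E-box that the factors USF1 and USF2 bind), GGGCGG (the GC box that SP1 binds) and TATAAA (the TATA box), searched on both strands. The IRF element, bound by interferon regulatory factors, was searched too and had no match in these 4 windows.
CEACAM6: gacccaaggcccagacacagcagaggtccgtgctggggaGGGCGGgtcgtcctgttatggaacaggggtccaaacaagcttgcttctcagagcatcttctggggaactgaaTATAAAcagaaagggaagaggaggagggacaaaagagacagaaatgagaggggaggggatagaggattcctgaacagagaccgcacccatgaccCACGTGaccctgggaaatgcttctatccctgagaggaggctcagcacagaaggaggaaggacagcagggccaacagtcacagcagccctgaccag
CEACAM5: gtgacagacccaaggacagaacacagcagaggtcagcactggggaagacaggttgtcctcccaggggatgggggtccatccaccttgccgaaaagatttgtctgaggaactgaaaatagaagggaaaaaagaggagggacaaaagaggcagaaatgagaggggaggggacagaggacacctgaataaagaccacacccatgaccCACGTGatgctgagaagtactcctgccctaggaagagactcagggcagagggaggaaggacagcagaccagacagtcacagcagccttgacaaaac
CEACAM7: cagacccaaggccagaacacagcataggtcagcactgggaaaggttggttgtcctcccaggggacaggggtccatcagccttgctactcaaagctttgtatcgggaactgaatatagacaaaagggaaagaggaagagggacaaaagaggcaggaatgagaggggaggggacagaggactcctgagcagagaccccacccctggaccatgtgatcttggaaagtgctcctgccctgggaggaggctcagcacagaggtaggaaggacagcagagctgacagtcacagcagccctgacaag
CEACAM8: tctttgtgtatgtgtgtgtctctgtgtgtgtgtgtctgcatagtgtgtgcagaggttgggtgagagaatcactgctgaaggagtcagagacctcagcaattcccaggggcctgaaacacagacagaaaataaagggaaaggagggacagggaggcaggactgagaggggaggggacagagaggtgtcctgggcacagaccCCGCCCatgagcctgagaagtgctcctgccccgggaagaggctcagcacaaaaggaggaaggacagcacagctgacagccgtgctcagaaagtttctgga

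CEACAM5 and CEACAM6 each held 1 match to CACGTG, with its first base at -46 and -45 from the start, and the windows of CEACAM1, CEACAM3, CEACAM7, CEACAM8 and CEACAM21 held none. This motif was found in 7.26% of 35116 RefSeq promoter windows of the same length. GGGCGG was found in CEACAM6 at -211, in CEACAM8 at -50, in CEACAM1 at -52 and in both CEACAM21 windows, and in 45% of all windows. TATAAA was matched in CEACAM6 alone of these windows, at -139, and in 11.5% of all windows. The IRF element was matched in CEACAM1 at -116 and in 3.57% of all windows. The CEACAM5 and CEACAM7 windows shared 84.7% of their aligned bases, those of CEACAM6 and CEACAM7 81.5% and those of CEACAM5 and CEACAM6 78.8%. CEACAM8 shared 69% with CEACAM6 and 66.7% with CEACAM5. Members set against 200 other promoters of chromosome 19 gave a median of 58.6% and at most 71.2%. CEACAM7 was closer to CEACAM5 and CEACAM6 in these bases than CEACAM8 was. How this likeness relates to the differences between the subclones was not tested. The matches describe letters only.

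The 6 arrays covered log2 values between 1.95 and 15.15, with array medians between 6.12 and 6.15, and their number, 3 per subclone, limits the precision. CTNNA1, which encodes αE-catenin and checks the labels, was lower in DLD-1Δα-Cat on its brightest probe set, 200765_x_at. It stayed bright there, between 11.01 and 11.38, against 12.73 to 12.79 in DLD-1α-Cat, so its signal was lowered and not lost. This probe set differed by -1.52 (SE 0.125, limma adjusted p = 0.00190 over all probe sets) and did not pass without moderation (limma adjusted p = 0.0617). The CTNNA1 probe sets 210844_x_at, 200764_s_at and 1558214_s_at differed by -1.52, -1.56 and -1.54 and passed in the main fit. Its dimmest probe set, 215883_at, read between 4.34 and 4.80 and hardly differed (-0.0056). A sign of RNA quality also moved with the groups: β-actin's 3' control probe set exceeded its 5' one by 5.20 ± 0.159 log2 units in DLD-1Δα-Cat, against 4.69 ± 0.291 for the other subclone (SD, n = 3 each). A two-sided exact permutation test returned p = 0.1, which is the lowest that 3 against 3 allows. For GAPDH this excess was 0.75 ± 0.0670 and 0.66 ± 0.144 (SD, n = 3 each; exact permutation p = 0.4). The part of RNA quality in the differences below was not tested beyond a fit that includes this β-actin ratio, which was added once the data had been seen and in which 0 of the 19 CEACAM probe sets passed, with differences of 2.21 for CEACAM6 211657_at and 1.92 for CEACAM8. In that fit CTNNA1 did not pass either (-1.56, limma adjusted p = 0.133). The ratio lay between 5.07 and 5.38 on the arrays of DLD-1Δα-Cat and between 4.36 and 4.89 on those of DLD-1α-Cat. As these ranges do not overlap, the fit can hardly separate the ratio from the subclone, and its loss of calls decides nothing. The share of all probe sets passing in that fit is not given, so its count cannot be read as particular to the CEACAM genes. Differences subtract the DLD-1α-Cat mean from the DLD-1Δα-Cat mean on the log2 scale of RMA, the authors' summary of the probes of a set, and folds are taken on that scale. In bulk RNA, more cells with a transcript and more transcript per cell cannot be told apart.

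CEACAM6, CEACAM8 and CEACAM19 were higher in DLD-1Δα-Cat on their brightest probe sets, by 5.81-fold, 3.67-fold and 1.79-fold, with no overlap between the arrays of the subclones. CEACAM5 differed by 2.75-fold on its brightest probe set, but its arrays overlapped and it did not pass. In a limma fit over every probe set, 3 of the 19 CEACAM probe sets passed an adjusted p of 0.05, all 3 of them higher, where 2.45% of all probe sets were called, 1.72% higher and 0.729% lower. They were both probe sets of CEACAM6 and the only one of CEACAM8. With the replicate number as a block, which pairs the arrays, 4 passed, where 2.37% of all probe sets were called: CEACAM5 201884_at and CEACAM19 passed beside CEACAM6 211657_at and CEACAM8, and CEACAM6 203757_s_at did not. With genes represented by their brightest probe set, 3 of the 8 genes passed and were higher, CEACAM6, CEACAM8 and CEACAM19, where 5.52% of all genes were called, 3.84% higher and 1.67% lower. The counts of genes that rose or fell in the lists below come from this fit and are to be read beside these shares. All 3 arrays of DLD-1Δα-Cat lay above all 3 of DLD-1α-Cat for 6 of the 19 probe sets, against 10.4% of all probe sets, and the reverse held for 0, against 11.7%. The difference lay above 0 for 13 of the 19, against 42.3% of all probe sets. The median difference was 0.12 over the 19 probe sets and -0.041 over all probe sets.

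**Figure D1:**
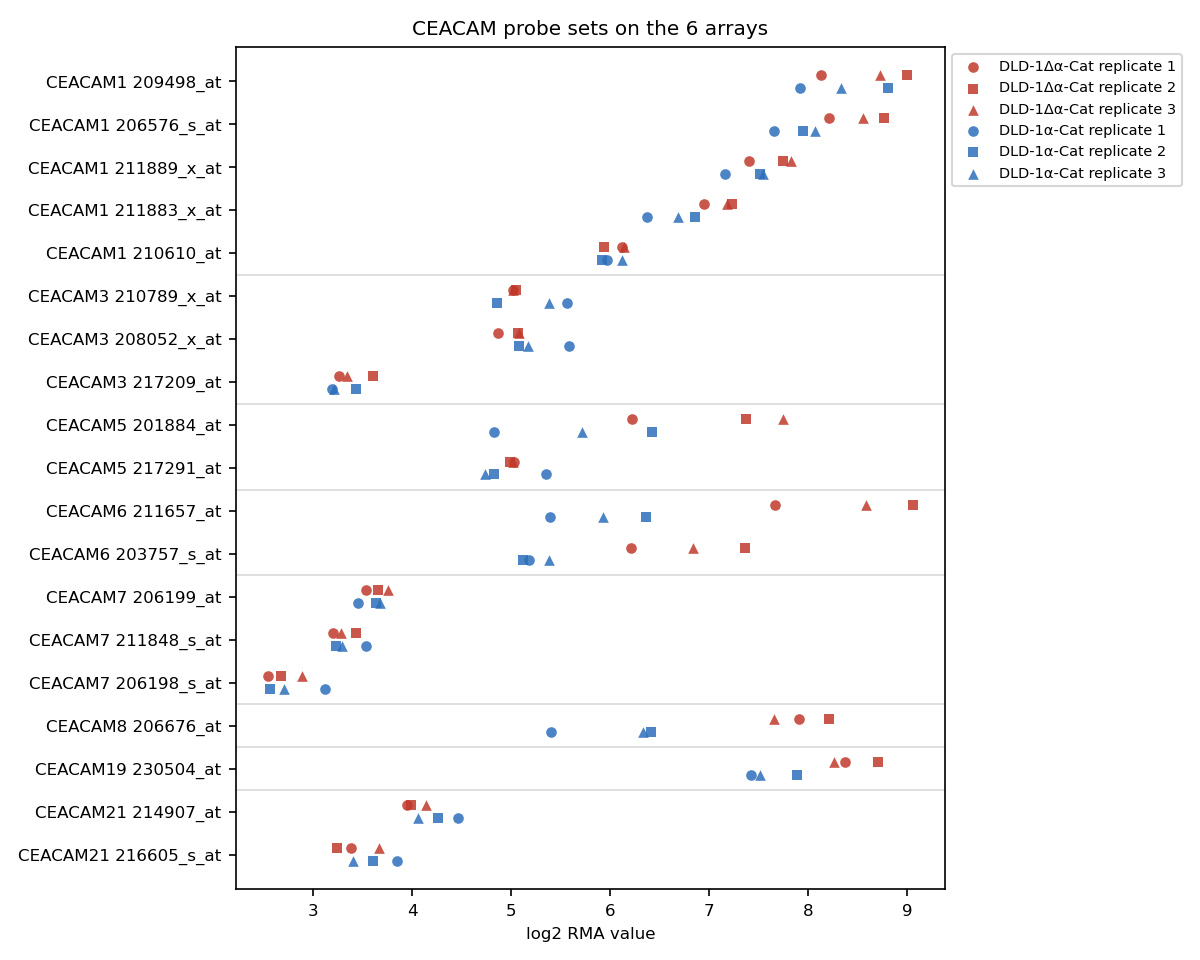
Log2 RMA value (x axis) of the 19 CEACAM probe sets (rows) on the 6 arrays, with DLD-1Δα-Cat in red and DLD-1α-Cat in blue and 1 symbol per replicate number. The red symbols of CEACAM6 211657_at lie between 7.66 and 9.06 and the blue ones between 5.39 and 6.36, while those of CEACAM7 overlap.

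CEACAM6 is a GPI-anchored adhesion molecule that is often raised in colorectal tumours. Its brighter probe set, 211657_at, read 7.66, 9.06 and 8.58 in DLD-1Δα-Cat and 5.39, 6.36 and 5.93 in DLD-1α-Cat. Every array of DLD-1Δα-Cat was higher by more than a log2 unit than the highest of the other subclone, and the means were 8.43 ± 0.710 and 5.89 ± 0.484 (SD, n = 3 each), a difference of 2.54 (SE 0.376). The second probe set, 203757_s_at, read 6.21, 7.36 and 6.84 against 5.18, 5.12 and 5.39. It did not overlap either, and differed by 1.57 (SE 0.269), or 2.98-fold. The means of these probe sets stood at percentiles 70.9 and 57.3 of all probe sets in DLD-1Δα-Cat, and at percentiles 47.0 and 38.0, below the middle of the scale, in DLD-1α-Cat.

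CEACAM8 (CD66b), a GPI-anchored protein known as a marker of granulocytes, read 7.91, 8.22 and 7.65 in DLD-1Δα-Cat and 5.41, 6.41 and 6.33 in DLD-1α-Cat on its single probe set 206676_at. Every array of DLD-1Δα-Cat lay above the range of the other subclone, and the difference was 1.88 (SE 0.281). Its mean moved from percentile 49.1 to percentile 66.9. The probe sequences were not used here, and how far this probe set reads transcripts of CEACAM6 or other relatives was not tested. Defining markers of granulocytes lay below the median of all genes: MPO, the peroxidase of their granules, read between 4.91 and 5.08, the elastase ELANE between 4.09 and 4.67, the Fc receptor FCGR3B between 2.77 and 3.02 and the pan-leukocyte PTPRC between 3.19 and 3.95. Of 20 granulocyte markers 0 rose and 1 fell, with a median of -0.21 against -0.030 over all genes. The gene that fell was CD177, a GPI-anchored neutrophil protein and the 1 of the 20 that was brighter than the median of all genes, at 8.96 ± 0.232 in DLD-1Δα-Cat against 9.93 ± 0.235 (SD, n = 3 each; limma adjusted p = 0.0183). CD177 passed in 3 of the 6 fits without an array. The mean of the 20 markers lay between 4.75 and 4.80 on the arrays of DLD-1Δα-Cat and between 4.85 and 5.05 on those of DLD-1α-Cat.

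CEACAM5, carcinoembryonic antigen itself, is the GPI-anchored protein measured in blood to follow colorectal cancer. Its probe set 201884_at read 6.22, 7.38 and 7.75 in DLD-1Δα-Cat and 4.83, 6.43 and 5.72 in DLD-1α-Cat. The lowest array of DLD-1Δα-Cat lay below the highest of DLD-1α-Cat, so the subclones overlapped, and the difference of 1.46 (SE 0.488) did not pass. Within each replicate number DLD-1Δα-Cat was higher, by 1.40, 0.95 and 2.03. With the replicate number as a block this probe set passed. The other CEACAM5 probe set, 217291_at, read 5.03, 4.98 and 5.02 against 5.35, 4.83 and 4.74, a difference of 0.039 (SE 0.169). The CEACAM5 difference was therefore seen on 1 of its 2 probe sets.

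CEACAM7, a GPI-anchored protein largely restricted to the epithelium of colon and pancreas, was dim on all its 3 probe sets, with values between 2.54 and 3.75. Their differences of 0.062, -0.050 and -0.091 were smaller than their standard errors (0.115, 0.127 and 0.171), and the arrays of the subclones overlapped in each. The means lay at or below percentile 16.2 of all probe sets in both subclones.

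CEACAM1, read by 5 probe sets, spans the membrane. It is the inhibitory receptor of the family, with tyrosine-based signalling motifs in its long cytoplasmic form, and a regulator of insulin clearance. The probe set 206576_s_at read 8.21, 8.76 and 8.56 in DLD-1Δα-Cat and 7.66, 7.95 and 8.08 in DLD-1α-Cat. These values did not overlap, and neither did those of 211883_x_at, at 6.95, 7.23 and 7.18 against 6.38, 6.86 and 6.69. The differences of 0.62 (SE 0.176) and 0.48 (SE 0.155) did not pass. The brightest probe set, 209498_at, read 8.13, 8.998 and 8.72 against 7.92, 8.81 and 8.33, so that the replicates of each subclone spread more widely than the subclones lay apart (difference 0.26, SE 0.282). The further probe sets 211889_x_at and 210610_at differed by 0.25 (SE 0.161) and 0.063 (SE 0.113). All 5 differences lay above 0, between 0.063 and 0.62, and 0 of the 5 passed.

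CEACAM19, a transmembrane member with a less well known role, read 8.37, 8.71 and 8.26 in DLD-1Δα-Cat and 7.42, 7.89 and 7.52 in DLD-1α-Cat on its single probe set 230504_at. The lowest value of DLD-1Δα-Cat lay above the highest of DLD-1α-Cat. The difference was 0.84 (SE 0.172 in the fit over every probe set), or 1.79-fold, and it passed in the fit over genes but in the fit over every probe set only with the replicate block. CEACAM3, a receptor by which granulocytes take up bacteria, was dim, with values from 3.19 to 5.58, and its 3 probe sets differed by -0.24, -0.27 and 0.12. CEACAM21 lay between 3.24 and 4.46 and differed by -0.23 and -0.19. The arrays of the subclones overlapped in all 5 probe sets of these last genes.

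**Figure D2:**
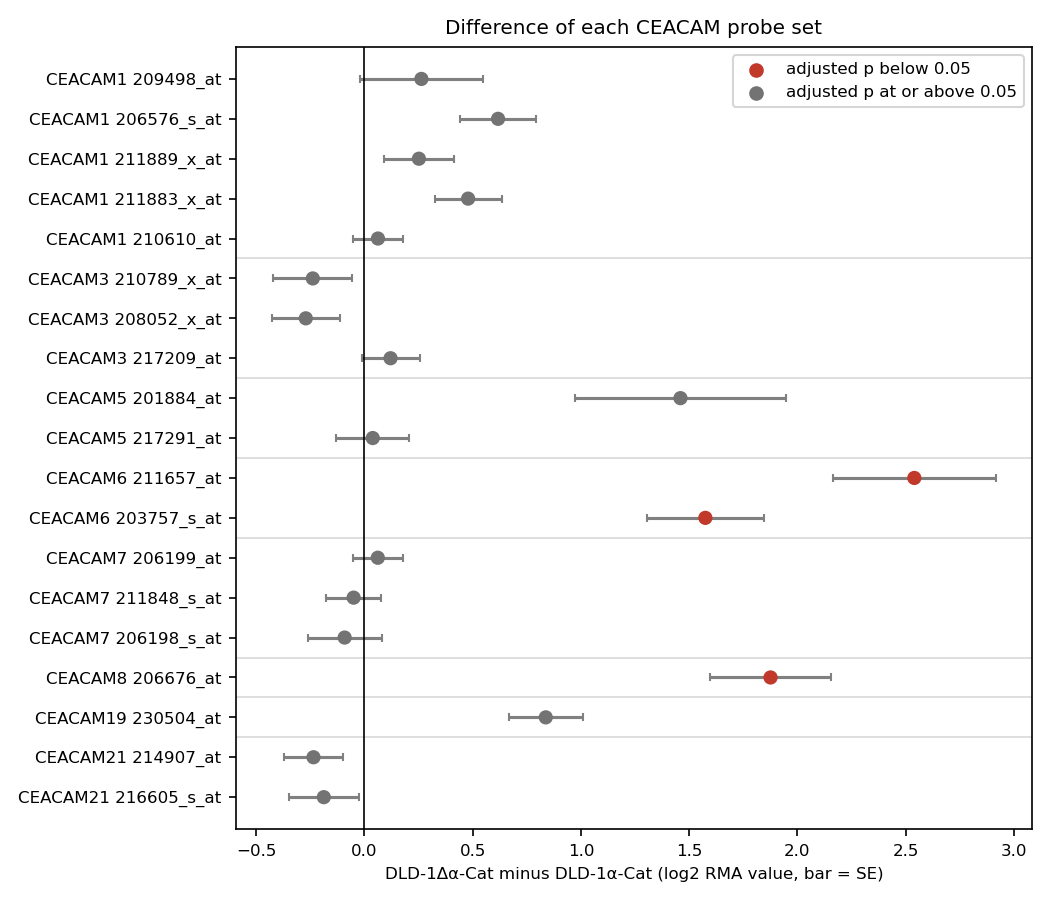
Difference between the subclone means (x axis, log2 RMA value, DLD-1Δα-Cat less DLD-1α-Cat) of the 19 CEACAM probe sets (rows), with bars for the standard error and red for those with an adjusted p below 0.05 over all probe sets. Both CEACAM6 probe sets, at 2.54 and 1.57, and CEACAM8, at 1.88, are red, and CEACAM5 201884_at, at 1.46, has the widest bar.

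The differences thus varied in size among probe sets of the same gene for CEACAM1, CEACAM5 and CEACAM6, where CEACAM5 217291_at was dim. In the manufacturer's naming, _s_at marks probes that match several transcripts and _x_at marks sets with probes that resemble other sequences. Of the 19 probe sets, 10 carried the plain ending _at, 5 the ending _s_at and 4 the ending _x_at. The _x_at sets belonged to CEACAM1 (2) and CEACAM3 (2). As the genes are close relatives, signal could be shared among members, which was not tested.

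The calls depended on single arrays. Of the 19 probe sets, 2, 0 and 0 passed when replicate 1, 2 or 3 of DLD-1Δα-Cat was dropped, and 1, 3 and 0 when the same was done in DLD-1α-Cat, while between 0.712% and 2.57% of all probe sets were called in those fits. Across the 6 fits the difference of CEACAM6 211657_at stayed between 2.23 and 2.93, that of CEACAM8 between 1.55 and 2.06 and that of CEACAM5 201884_at between 1.04 and 1.91. In the fit over genes CEACAM8 was called in each of the 6 fits that dropped an array, CEACAM6 in 5 and CEACAM19 in 1, the fit without replicate 2 of DLD-1α-Cat. The share of all genes called in these gene fits is not given, so their counts cannot be read as particular to the CEACAM genes.

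The members also varied among arrays of the same subclone. The SD within subclones, whose median over all probe sets was 0.18, lay above that median for 14 of the 19 probe sets and below it for 5, between percentiles 18.5 and 99.5. It was 0.80 for CEACAM5 201884_at, 0.61 for CEACAM6 211657_at, 0.44 for CEACAM1 209498_at and 0.44 for CEACAM8, the 4 highest of the family, at percentiles 99.5, 98.4, 95.2 and 95.1. The other CEACAM1 probe sets lay at percentiles 72.9, 64.0, 59.6 and 18.5, CEACAM19 at 70.6, CEACAM5 217291_at at 69.2 and CEACAM7 206199_at at 20.7. Replicate 1 was the lowest array of DLD-1Δα-Cat in 14 of the 19 probe sets and of DLD-1α-Cat in 10, where 34.6% and 36.4% of all probe sets had replicate 1 lowest. CEACAM8 and CEACAM19 were lowest in replicate 3 of DLD-1Δα-Cat. These probe sets share arrays and, within a gene, a transcript, and they are not independent.

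**Figure D3:**
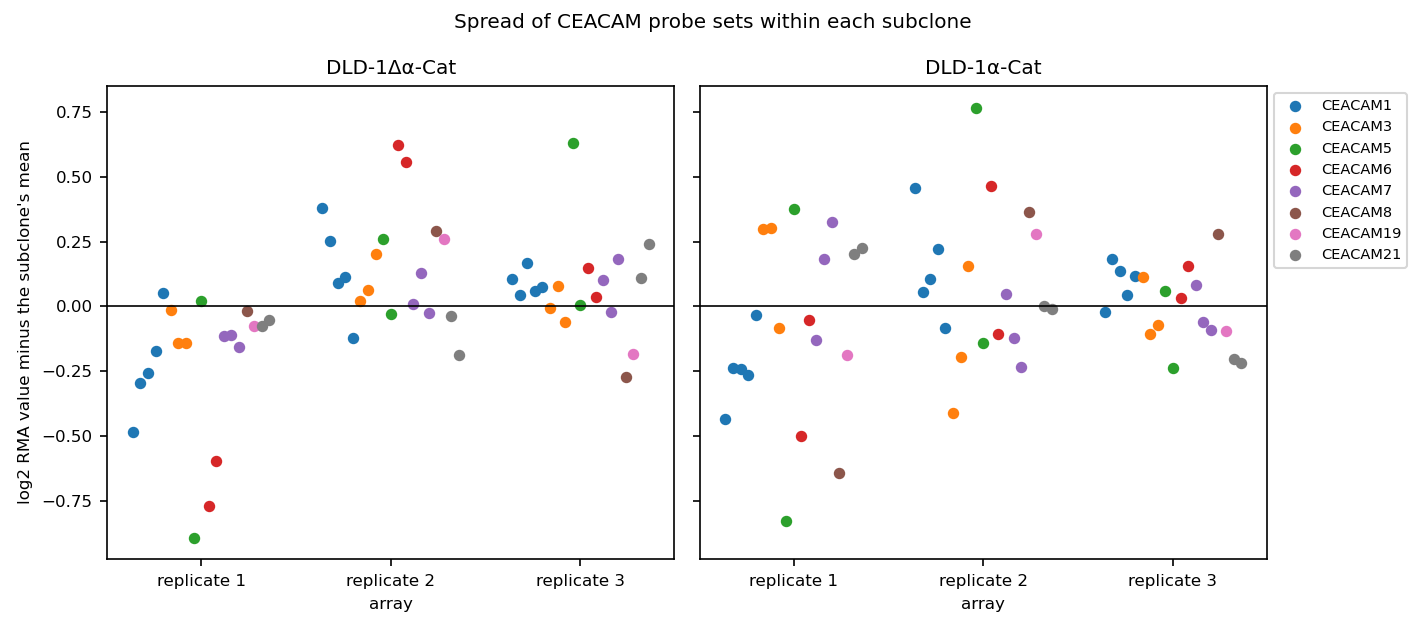
Log2 RMA value minus the mean of the subclone (y axis) for the 19 CEACAM probe sets, with 1 point per array and 1 colour per gene, by replicate number (x axis) in DLD-1Δα-Cat (left) and DLD-1α-Cat (right). Replicate 1 is the lowest array for 14 probe sets on the left and 10 on the right, and CEACAM5 201884_at spreads most widely, with an SD of 0.80 within subclones.

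The genes whose 6 values ran most like those of CEACAM6 211657_at, by the root mean square distance after each gene was centred on its own mean, were MEGF6 (distance 0.18), MTSS1 (0.25), the probe set annotated DLX6-AS1 (0.28), the homeobox gene DLX1 (0.30) and DNER (0.32), against a median of 1.39 over 19774 genes. The nearest CEACAM genes by this measure were CEACAM8 at rank 43 (0.52) and CEACAM5 at rank 96 (0.62), followed by CEACAM19 at rank 524 (0.93) and CEACAM1 at rank 1774 (1.15). CEACAM7, CEACAM21 and CEACAM3 lay at ranks 5559, 15679 and 17316. This measure contains the difference between the subclones, so it describes and does not test.

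The genes around the members were called about as often as all genes. Between CEACAM21 and CEACAM19, 73 other genes were tested, of which 3 were higher (CNFN at 0.71, ZNF223 at 0.68 and ZNF45 at 0.52; limma adjusted p = 0.0180, 0.0228 and 0.0341) and 1 was lower, CD177, or 5.48% called against 5.52% of all genes. Their median difference was 0.00022, but the differences were not spread evenly. ZNF45 and ZNF223 lie in a run of neighbouring genes from ZNF283 to ZNF180, shortly before CEACAM19. All differences in this run lay above 0 but those of LOC100505715 (-0.039), ZNF221 (-0.036) and ZNF229 (-0.078). The largest, ZNF233 at 0.87, had no overlap between the subclones but did not pass. ZNF45 and ZNF223 were the only calls of the run. Its bounds, next to LYPD5 (-0.20) and PVR (-0.24), were set after the values were seen, so its signs are a description. Of all genes 44.7% had a difference above 0. Why this run was higher was not tested. The 10 tested genes on either side held 0 calls. Among the further CEACAM genes and the pregnancy-specific glycoprotein (PSG) genes of the locus, 10 of 15 were measured and 0 passed, with a median of -0.13 and 1 of 10 above 0. CEACAM4 differed by -0.14, and 0 of the 10 lay above the median of all genes.

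CEACAM5, CEACAM6, CEACAM7 and CEACAM8 depend on the enzymes that make GPI anchors. Of 29 genes of GPI anchor synthesis and remodelling 2 rose and 0 fell, PIGS, a subunit of the transamidase that attaches the anchor, from 9.16 ± 0.0510 in DLD-1α-Cat to 9.98 ± 0.164 (SD, n = 3 each; difference 0.82, limma adjusted p = 0.00831), and PGAP3, which remodels its lipid (0.53, limma adjusted p = 0.0397). PGAP3 passed in 0 of the 6 fits without an array. The median of the list was -0.049. Among the genes of 31 other GPI-anchored surface proteins, CD109 rose by 1.16 (limma adjusted p = 0.00539). CD109 read between 4.92 and 6.39, with a mean below the median of all genes. CD14, which binds bacterial lipopolysaccharide (-1.17, limma adjusted p = 0.00517), and TFPI, an inhibitor of clotting with a GPI-anchored form (-0.79, limma adjusted p = 0.00808), fell. Their median was -0.028.

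Of 18 measured genes whose proteins bind CEACAM receptors or act behind them, 16 lay above the median of all genes. Among the 18, 0 rose and 1 fell, the fatty acid synthase FASN, which CEACAM1 binds in liver (-0.73, limma adjusted p = 0.0227), and the median was -0.016. FASN passed in 2 of the 6 fits without an array and not with the mean of its probe sets (limma adjusted p = 0.0950). The phosphatases that dock on CEACAM1, PTPN6 and PTPN11, differed by 0.28 and -0.10 and the kinase SRC by 0.13, none of which passed. Of 13 transcription factors studied at CEACAM promoters or in the colon epithelium 0 rose and 1 fell, the intestinal homeobox factor CDX1, from 7.43 ± 0.0447 in DLD-1α-Cat to 6.34 ± 0.0761 (SD, n = 3 each; limma adjusted p = 0.00117).

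Among genes of 36 other adhesion molecules with immunoglobulin folds 4 rose and 1 fell, against 3.84% and 1.67% of all genes, with a median of -0.051. The rises were those of NECTIN3, a nectin of adherens junctions (5.70, limma adjusted p = 2.38e-06), the homophilic receptor phosphatase PTPRM (1.62, limma adjusted p = 0.000792), VSIG1 (1.44, limma adjusted p = 0.0334) and the junctional molecule JAM2 (0.78, limma adjusted p = 0.0178), and ICAM2, a ligand of leukocyte integrins, fell (-0.80, limma adjusted p = 0.00692). VSIG1 passed in 1 of the 6 fits without an array and JAM2 in 4. VSIG1 was dim, with values between 3.09 and 5.11, and JAM2 read between 4.93 and 6.02. Of 25 colon surface epithelium genes 1 rose, the keratin KRT20 (4.89, limma adjusted p = 1.49e-05), and 2 fell, the carbonic anhydrase CA2 (-1.39, limma adjusted p = 0.00159) and PLAC8 (-0.84, limma adjusted p = 0.0359). PLAC8 passed in 1 of the 6 fits without an array. The median of the 25 genes was -0.11, and 11 of them lay above the median of all genes.

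Markers of the labelled cells were bright: EPCAM read between 13.35 and 13.53 and the keratin KRT18 between 13.96 and 14.16. Of 10 colon epithelial markers 0 passed, and among them ELF3, an epithelial transcription factor, differed most (0.64, limma adjusted p = 0.151). Of 12 other leukocyte markers 1 rose, lysozyme (LYZ, 1.54, limma adjusted p = 0.0167, past the threshold in 3 of the 6 fits without an array), and 0 fell. LYZ was dim, with values between 3.47 and 5.76. Of 12 fibroblast and 12 endothelial markers 0 passed, with medians of -0.050 and -0.21, and 0 of them lay above the median of all genes.

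**Figure D4:**
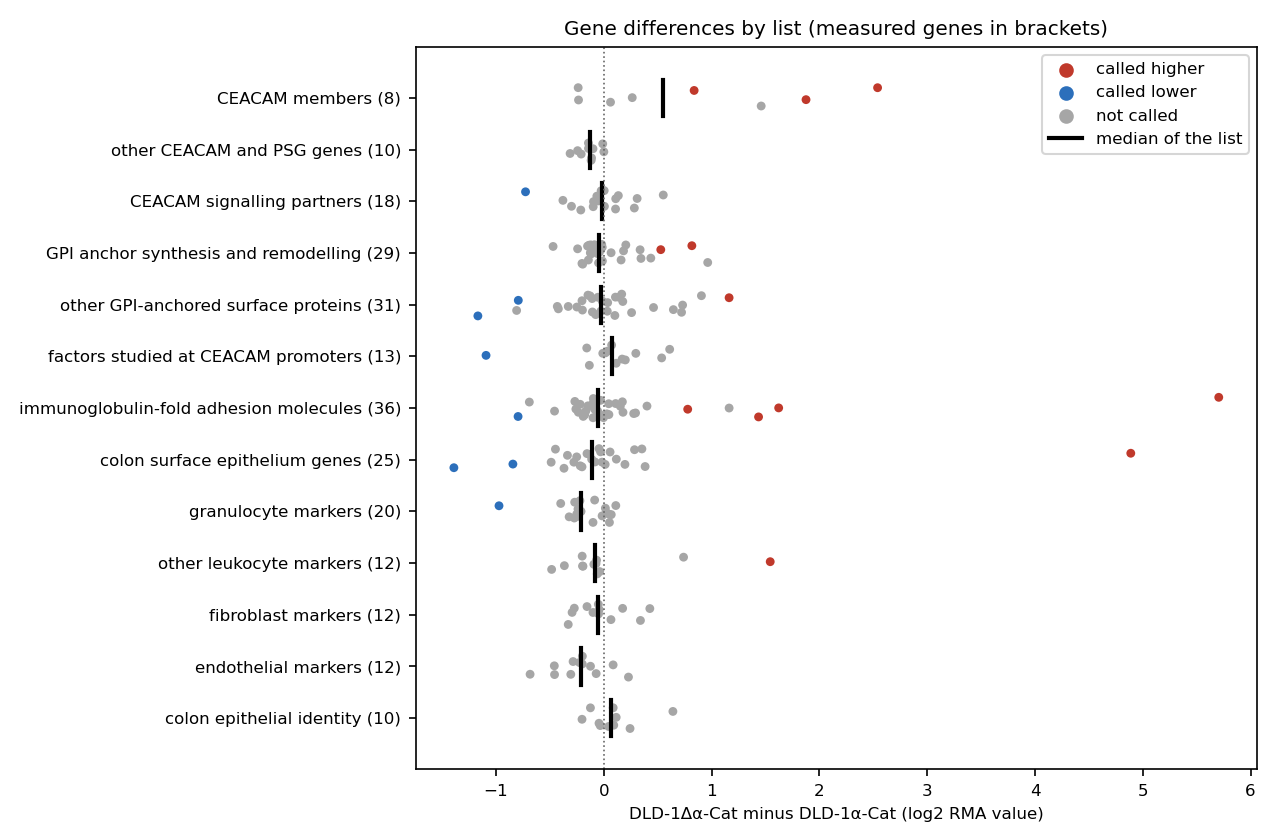
Difference of each measured gene (x axis, log2 RMA value, DLD-1Δα-Cat less DLD-1α-Cat) in 13 lists (rows), with called genes in red (higher) or blue (lower) and a black bar at the median of the list. The median of the 8 CEACAM genes is 0.55 on their brightest probe sets, and 0.12 over all their 19 probe sets. The medians of the other 12 lists lie between -0.21 and 0.072. The CEACAM family was chosen by this difference, so its median is a description and no test against the other lists.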

How the data were processed

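Biotin-labelled RNA of 6 samples was measured on Affymetrix arrays. The deposited table holds log2 RMA summaries that, per the submitters' processing notes, came from Expression Console, with no version named. RMA equalizes the arrays' distributions, which hides any global change in RNA amount. Scanner files and detection calls were not used here.

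Groups and replicate numbers come from the titles. Array controls (62) were not tested. The platform annotation gave 1 symbol for 41091 of 54613 probe sets, several for 1801 and none for 11721. Differences were fitted with limma 3.58.1 in R 4.3.3 (lmFit, eBayes, two-sided, Benjamini-Hochberg, threshold 0.05), once over every probe set and once over 19775 genes by their brightest probe set, without a filter on dim values. Both fits were tested on simulated data.

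Members and lists were chosen with earlier results of these data known. Named genes are the members, CTNNA1, up to 3 called genes of each list with the largest differences (or the most different bright one), and the 5 genes nearest to CEACAM6. JAM2, ICAM2, markers, partners and the uncalled genes of chromosome 19 were added after their values were seen. Across genes, the departures of arrays 1, 2 and 3 from their own subclone mean correlated between the subclones with r of 0.225, 0.376 and 0.122, all over 0.1. The main fits, with their errors and adjusted p-values, do not pair the arrays. A fit with the replicate number as a block, which pairs them, was set beside the main fits. That pairing rests on this check and on no stated design. Promoter windows are from RefSeq and were aligned pairwise with Biopython 1.88. The alternatives were other scalings, a filter on dim values, other variance models, array weights, the replicate block, gene means and leaving out each array.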

Additional observations from a re-analysis of the deposited data

How the results depend on the processing

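The 3 higher and 0 lower CEACAM probe sets became 4 and 0 with the replicate block, which paired the samples, and with array weights or with a variance trend, and stayed at 3 and 0 after quantile normalization and after centring. Without moderation 0 CEACAM probe sets passed. Leaving out an array gave 0 to 3 higher CEACAM probe sets and 1 to 3 higher CEACAM genes. The 3 higher CEACAM genes fell to 1 without dim genes, where 2 of the 8 lay above the median of all genes and were tested. With the β-actin ratio as a covariate, chosen after seeing the data, 0 CEACAM probe sets and 0 CEACAM genes passed, and the other lists held 2 higher and 0 lower genes. That ratio did not overlap between the subclones, so this fit can hardly separate it from the subclone. Those lists together held 9 higher and 8 lower genes, 15 higher with the replicate block, and 5 to 12 higher and 5 to 8 lower without an array. CTNNA1 did not pass without moderation (-1.52) or with the β-actin ratio (-1.56). The cause of these changes was not tested. Apart from the replicate block and the probe set fits without an array, the share of all probe sets or genes called in these alternatives is not given. Their counts therefore cannot be read as particular to the CEACAM genes. No called difference changed sign, and 9 differences of CEACAM probe sets called in neither fit did. Signal over background limits CEACAM3, CEACAM7 and CEACAM21, which were dim on all arrays, and the CEACAM5 probe set 217291_at.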
